A study of Mus musculus with 33 samples.

Results

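The genes described here are 10 genes of phagocytes and of the lysosome: Gpnmb, Spp1, Tyrobp, Cd68, C1qb, Lyz2, Dnase2a, Ctsd, Ctsb and Apoe. They were picked from 37926 gene records per table because several of them were higher in motoneuron axons labelled 7SK knockdown, and their use was to judge RNA of microglia or macrophages in each compartment. All 10 symbols were found in each of the 4 RNA comparison tables. Their values in the axons labelled 7SK knockdown and in the control axons beside them therefore describe the choice and test nothing. The cell-body side was not used to pick them.

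Microglia and macrophages are the professional phagocytes of tissue: they engulf dead cells, debris and protein aggregates and deliver them to the lysosome. In the lysosome, an acidified compartment, proteases, lipases, glycosidases and nucleases break the cargo down. Phagocytes carry much of this machinery and add their own surface receptors, adaptors, complement and lysozyme, while the general lysosomal enzymes are made by neurons and glia as well. Apoe, a lipid carrier of the brain, is made in quantity by astrocytes and also by activated microglia.

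The RNA came from primary motoneurons of CD-1 mice grown in microfluidic chambers, in which axons extend into a compartment apart from the cell bodies and dendrites. The groups are motoneurons with 7SK knockdown (4 axonal and 4 somatodendritic libraries), with hnRNP R knockdown (3 and 3) and GFP controls (4 and 4), all as total RNA. 7SK is a noncoding RNA that holds an elongation kinase inactive, and hnRNP R is an RNA-binding protein. The sources used here do not state how the knockdowns were made, the age of the mice or what the GFP control carries. A further 11 libraries of unperturbed cells mapped contacts of hnRNP R by iCLIP, which counts cDNAs that end where a protein was crosslinked to RNA. They came from primary CD-1 motoneurons and from NSC34 cells, a mouse hybrid line with motoneuron features. The labels do not say whether libraries of a group are separate cultures. The groups are those of the sample titles, and the tables do not list which libraries entered each group value. The free-text descriptions differ in places: the hnRNP R cell-body samples name the 7SK cell-body comparison beside their own, 1 axonal 7SK sample names the hnRNP R cell-body comparison, and the control cell-body samples name the hnRNP R comparison alone.

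Each RNA value here is the authors' single value for a whole group, in FPKM (fragments scaled to gene length and library size). No spread between libraries can be given, the depth is unknown, and the p and q values are those of the authors' deposited tables. A gene is said to have risen or fallen where the authors' q, a p adjusted over all genes they tested, was under 0.05. The authors tested 1009 genes in the axons labelled 7SK knockdown, 1749 in hnRNP R knockdown axons, 1954 in 7SK and 2768 in hnRNP R cell bodies. No gene under 35.5, 21.8, 27.0 and 20.9 FPKM in its higher group was tested, in that order. Most of the phagocyte genes lie under these levels. With no read counts in these tables, an exact 0 may be a failed estimate as well as a lack of reads. Genes at 0 are therefore said to be listed at 0, and no more is read from a single 0. They enter the sums, counts and medians of gene lists as 0.

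The targets and the cell type were read before the genes. Rn7sk, the 7SK gene, was at 3508 FPKM in the axons labelled 7SK knockdown and 2708 FPKM in control axons, which goes against the label (q = 0.594 in the authors' deposited table). In 7SK knockdown cell bodies it fell to 6370.2 FPKM, against 9104 FPKM in control cell bodies (q = 0.00407, the authors' deposited table). Hnrnpr was at 3.98 and 9.93 FPKM in hnRNP R knockdown and control axons and at 10.8 and 27.2 FPKM in the cell bodies, lower in both and called in neither (not tested in axons, q = 0.310 in cell bodies, the authors' deposited table). Of the 12 motoneuron markers listed, 11 had a record. Chat, the acetylcholine-making enzyme, and Mnx1 and Isl2, which specify motoneurons, were listed at 0 in all 8 group values, while the neurofilament gene Nefl ranged from 21.3 to 93.0 FPKM. Of the 11, 3 were listed at 0 and 5 were at 1 FPKM or more in control cell bodies. In control axons 5 were listed at 0 and 4 were at 1 FPKM or more. The GFP libraries are the same in both knockdowns. Control values of the 7SK tables were 1.03 times (axons) and 0.920 times (cell bodies) those of the hnRNP R tables at the median, and Pearson's r between the tables on the log2 scale was 0.999994 and 0.999999, so these values differ in scaling only.

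Most of the 10 have a locus of their own on GRCm38. Gpnmb lies at chr6:49036518-49058182, Spp1 at chr5:104435118-104441050, Apoe at chr7:19696109-19699166, Tyrobp at chr7:30413788-30417577, Cd68 at chr11:69664213-69666153, C1qb at chr4:136880129-136886187 and Lyz2 at chr10:117277334-117282274. The other 3 have records that hold a neighbour. Ctsd shares 1 record, and thus 1 value, with Ifitm10 at chr7:142325837-142388038. Dnase2a is given the locus of Mast1, chr8:84908560-84937359, and Ctsb that of Fdft1, chr14:63122462-63177793, each with values of its own. Lyz2 has a near-identical neighbour, Lyz1, which was listed at 0 in all 8 group values, and reads may have been split between the copies.

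Promoter sequence is shown for the letters that known lysosomal and macrophage regulators read. The factors of the Mitf and Tfe family bind CACGTG and CATGTG in lysosomal promoters, and PU.1, the master regulator of macrophages, binds sites built on the ETS core, here searched as GGAAGT. RefSeq promoters (build GRCm38.p6, 250 bases before to 50 bases after a start) were present for 8 of the 10 genes in 11 promoters, and both strands were searched. CACGTG stood in the Ctsd promoter alone, 1 of the 11, at 2 places, and in 7.15% of all 32851 promoters. CATGTG stood in that of C1qb, again 1 of the 11, and in 14.2% of all. GGAAGT or its reverse complement ACTTCC stood in promoters of C1qb, Cd68, Dnase2a, Lyz2 and Spp1, in 5 of the 11 promoters of these genes and in 23.8% of all promoters. No searched motif overlaps another in these windows, which run 5′ to 3′ along the gene's strand with the motif in capitals. A match describes letters and shows no binding.
Ctsd, chr7:142388055-142388077, minus strand: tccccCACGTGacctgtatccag
Ctsd, chr7:142387908-142387937, minus strand: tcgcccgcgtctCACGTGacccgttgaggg
C1qb, chr4:136886413-136886442, minus strand: ctctgtagaagtCATGTGctcacaagacgc
C1qb, chr4:136886236-136886265, minus strand: acaggacctgaaACTTCCtgagggcagcag
Spp1, chr5:104434988-104435017, plus strand: aaaaccagaggaGGAAGTgtaggagcaggt
Dnase2a, chr8:84908698-84908727, plus strand: tcggtttttaggGGAAGTtcatctgaatct
Lyz2, chr10:117282355-117282384, minus strand: agatcggtaggaACTTCCtgttttgcacac
Cd68, chr11:69666142-69666171, minus strand: attttagttaagGGAAGTgaggcttttcat
Spi1, which encodes PU.1, was at 1.95 FPKM in the axons labelled 7SK knockdown and listed at 0 in control axons. It was listed at 0 in hnRNP R knockdown and control axons, at 0 and 1.28 FPKM in 7SK and control cell bodies, and at 0 and 1.40 FPKM in hnRNP R and control cell bodies. The 4 Mitf and Tfe genes summed to 8.91 and 9.81 FPKM in the axons labelled 7SK knockdown and control axons. They summed to 10.3 and 9.51 FPKM in hnRNP R knockdown and control axons, 10.9 and 7.75 FPKM in 7SK and control cell bodies, and 5.07 and 8.42 FPKM in hnRNP R and control cell bodies. None of these factors was tested by the authors in any comparison.

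In the cell bodies, which the choice of genes did not use, knockdown of 7SK changed none of the 10 past the authors' threshold. After hnRNP R knockdown 1 of the 10, Apoe, rose there. In bulk RNA, more or fewer cells of a type and more or less RNA per cell cannot be told apart, and this holds for every value below.

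Of the 4 genes tested in 7SK cell bodies none passed, where 2.51% of all tested genes did (1.43% rose); 2 of them, Spp1 and Apoe, had an unadjusted p under 0.05 in the authors' deposited table. Of the 4 tested in hnRNP R cell bodies 1 rose and none fell, where 0.975% of all tested genes changed, 0.361% upward and 0.614% downward. Of the 3 tested in hnRNP R knockdown axons none passed, where 0.114% of all tested genes did (0.0572% in each direction), and Apoe alone had an unadjusted p under 0.05. Of the 7 tested in the axons labelled 7SK knockdown 5 rose (Gpnmb, Spp1, Dnase2a, Apoe and Ctsd) and none fell, where 3.07% of all tested genes changed, 2.28% upward and 0.793% downward. That last count restates the choice of genes.

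**Figure D1:**
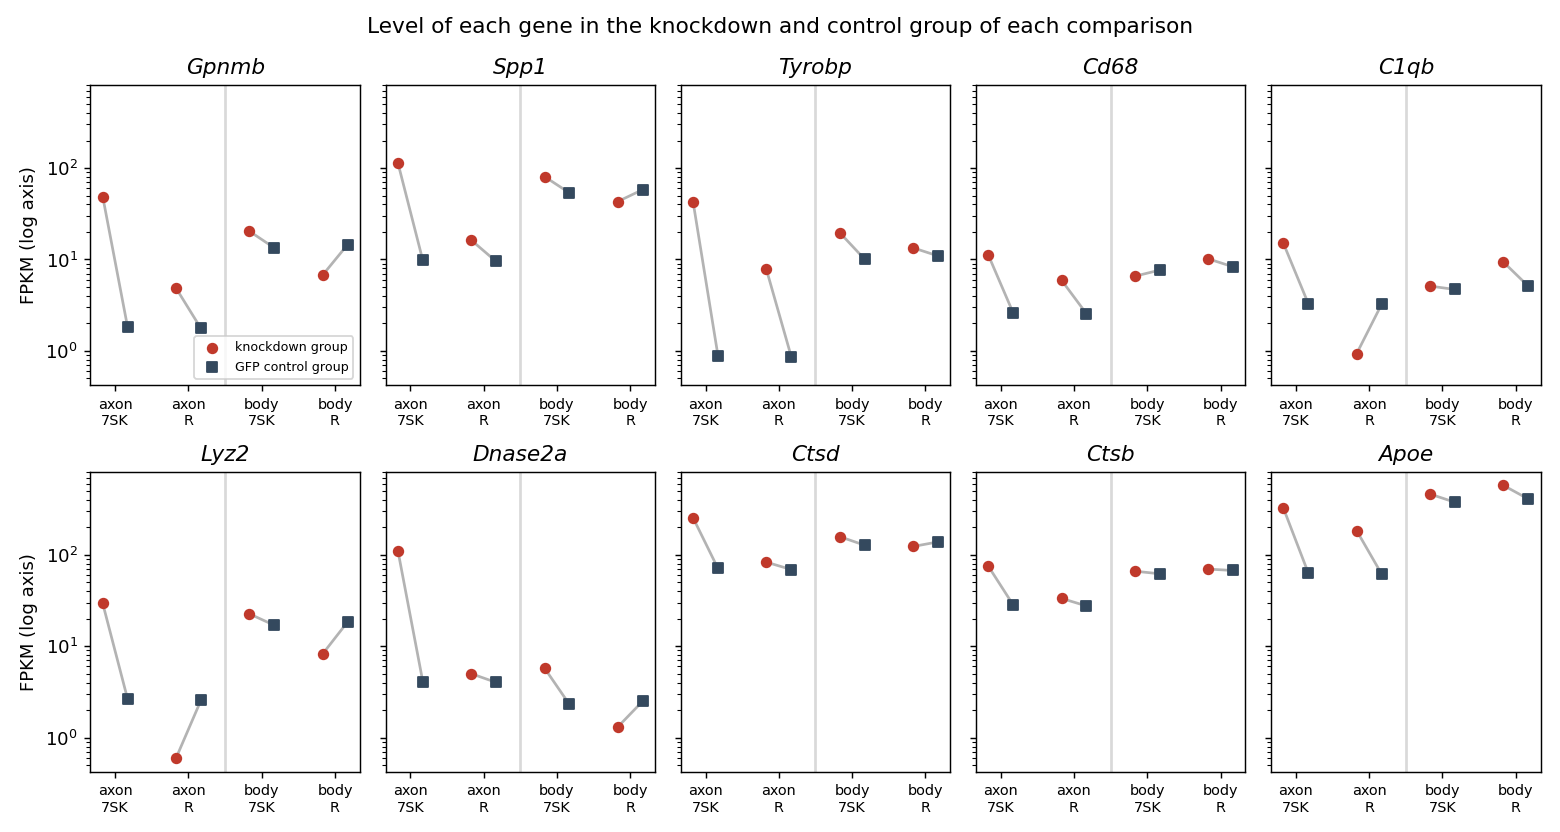
FPKM of each of the 10 genes (log axis, same range in every panel) in the knockdown group (red circle) and the GFP control group (blue square) of each comparison; axon and body are the axonal and somatodendritic compartments, 7SK and R the knockdown in the label, and each point is the authors' 1 value for a group. The axons labelled 7SK knockdown stand above control axons in all 10 panels, and each cell-body pair lies closer together than that axonal pair.

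By size, 9 of the 10 were higher and 1, Cd68, was lower in 7SK cell bodies than in control cell bodies as deposited, but 5 were higher and 5 lower when values were taken as shares of all summed FPKM. Their median log2 ratio was 0.36, with 0.1 FPKM added to each value, against 0.061 over all genes tested; as shares of all summed FPKM it was -0.020, so its sign too rests on the scaling. Only Dnase2a was at least 2-fold higher there, as were 12.9% of the 13479 records with 1 FPKM or more in the higher group, and none was 2-fold lower (9.53% were). In hnRNP R cell bodies 5 were higher and 5 lower (4 and 6 as shares of all summed FPKM), with a median of -0.058 against 0.020 over all genes tested. None was at least 2-fold higher there (9.1% of 13493 records were) and 2, Lyz2 and Gpnmb, were at least 2-fold lower (9.66% were).

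With hnRNP R knockdown, 8 were higher and 2, C1qb and Lyz2, lower in axons than in control axons as deposited, and 5 and 5 as shares of all summed FPKM, which put Ctsd, Ctsb and Dnase2a below control as well. The median log2 ratio was 0.54 there as deposited, against 0.14 over all genes tested, 0.41 relative to that shift and 0.19 as shares of all summed FPKM. At least 2-fold higher were 4 (Tyrobp, Apoe, Gpnmb and Cd68), where 15.5% of 13119 records were, and 2-fold lower were the 2 named, where 14.5% were. In the axons labelled 7SK knockdown all 10 were higher by at least 2-fold, where 21.3% of 13675 records were, with a median of 2.89 and a range of 1.41 to 5.45. All genes tested had a median of 0.23 there, and relative to that shift the median of the 10 was 2.66. Both axonal comparisons use the same control axons.

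**Figure D2:**
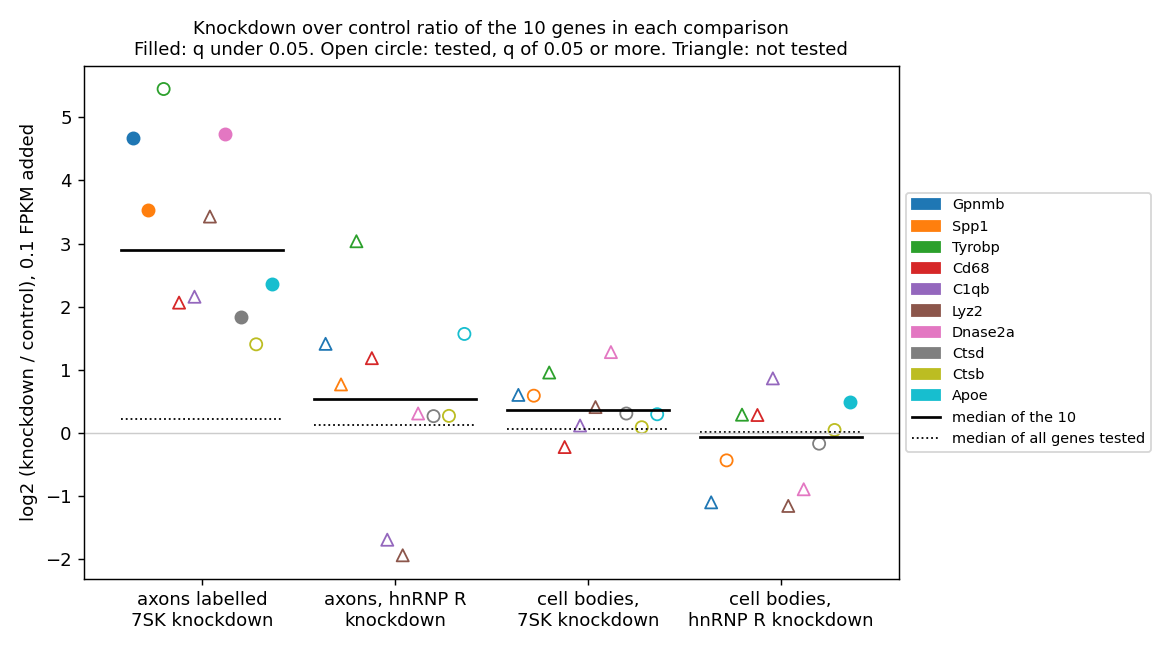
Log2 ratio of knockdown over control FPKM, with 0.1 FPKM added to both, for the 10 genes (colours) in the 4 comparisons; filled circles are genes with the authors' q under 0.05, open circles genes tested that did not pass, triangles genes they did not test, and black lines the medians of the 10 (solid) and of all genes tested (dotted). The medians of the 10 are 2.89, 0.54, 0.36 and -0.058 from left to right, and the 10 points spread around 0 in hnRNP R cell bodies.

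Spp1 encodes osteopontin, a secreted matrix protein that binds integrins and CD44 and marks phagocytes that have taken up debris. It was at 80.6 FPKM in 7SK cell bodies and 53.4 FPKM in control cell bodies (log2 ratio 0.59, p = 0.0064, q = 0.114 in the authors' deposited table). In hnRNP R cell bodies it was at 43.0 FPKM and in control cell bodies at 58.1 FPKM (log2 ratio -0.43, p = 0.04465, q = 0.377, the authors' deposited table). The gene thus stood on opposite sides of control in the cell bodies of the 2 knockdowns, and neither difference passed the test. Axons with hnRNP R knockdown held 16.3 FPKM and control axons 9.50 FPKM, not tested. The axons labelled 7SK knockdown held 114 FPKM and control axons 9.78 FPKM (log2 ratio 3.54, q = 0.00360, the authors' deposited table), which is also more than in any cell-body group.

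Gpnmb encodes a transmembrane glycoprotein of phagocytes and of cells under lysosomal stress. It was at 20.4 FPKM in 7SK cell bodies and 13.4 FPKM in control cell bodies, and at 6.75 FPKM in hnRNP R cell bodies and 14.5 FPKM in control cell bodies. Like Spp1 it was above control in the first and below it in the second, and the authors tested it in neither. Axons with hnRNP R knockdown held 4.86 FPKM and control axons 1.76 FPKM, also not tested. In the axons labelled 7SK knockdown it was at 48.8 FPKM and in control axons at 1.81 FPKM (log2 ratio 4.75, q = 0.0252, the authors' deposited table).

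Tyrobp encodes DAP12, the adaptor through which TREM2 and other myeloid receptors signal. It was at 19.7 FPKM in 7SK cell bodies and 10.1 FPKM in control cell bodies, and at 13.4 FPKM in hnRNP R cell bodies and 10.9 FPKM in control cell bodies, with no test in either. In axons it was at 7.81 FPKM with hnRNP R knockdown and 0.863 FPKM in control axons, not tested. Those labelled 7SK knockdown held 43.0 FPKM and control axons 0.886 FPKM, the largest ratio of the 10 (log2 ratio 5.60), yet this did not pass (p = 0.03785, q = 0.236, the authors' deposited table). Its receptor Trem2 was at 18.4 FPKM in the axons labelled 7SK knockdown and at 4.28 FPKM in hnRNP R knockdown axons, and was listed at 0 in control axons. In cell bodies Trem2 was at 7.49 and 2.72 FPKM with 7SK knockdown and in control, and at 2.30 and 2.96 FPKM with hnRNP R knockdown and in control. Tyrobp and Trem2 were both higher than control in 3 of the 4 comparisons. In hnRNP R cell bodies they differed in side, and Trem2 was not tested in any. Both axonal directions of Trem2 rest on its being listed at 0 in the shared control axons. The 6 genes listed for this pathway, Trem2 among them, summed to 19.6 and 0.466 FPKM in the axons labelled 7SK knockdown and control axons, 5.08 and 0.453 FPKM in hnRNP R knockdown and control axons, 9.91 and 3.78 FPKM in 7SK and control cell bodies, and 5.07 and 4.12 FPKM in hnRNP R and control cell bodies. Trem2 held most of the first of these sums. Of the 6, 3 and 4 were listed at 0 in each axonal pair, 3 and 2 in 7SK and control cell bodies, and 2 and 2 in hnRNP R and control cell bodies.

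C1qb encodes a chain of C1q, the protein that starts the classical complement cascade and tags material for uptake. It was at 5.11 and 4.70 FPKM in 7SK and control cell bodies, and at 9.39 and 5.10 FPKM in hnRNP R and control cell bodies. With hnRNP R knockdown it was at 0.936 FPKM in axons, below the 3.23 FPKM of control axons, and at 15.0 FPKM in the axons labelled 7SK knockdown, against 3.28 FPKM in control axons. No value of C1qb reached the level the authors tested. Its partner chains were read alongside. C1qa was at 15.4 and 9.15 FPKM in 7SK and control cell bodies and at 5.93 and 9.94 FPKM in hnRNP R and control cell bodies. C1qc was at 13.9 and 9.30 FPKM in the first pair and at 11.7 and 10.1 FPKM in the second. The 3 chains are needed in equal numbers for the protein, and in hnRNP R cell bodies C1qb and C1qc were above control while C1qa was below it. In axons C1qa was at 21.4 and 1.09 FPKM (labelled 7SK knockdown, control) and at 2.53 and 1.07 FPKM (hnRNP R knockdown, control). C1qc was at 20.1 and 2.79 FPKM in the first of these pairs and at 2.73 and 2.72 FPKM in the second.

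Lyz2 encodes lysozyme, a bacteria-degrading enzyme typical of myeloid cells. It was at 22.6 and 17.0 FPKM in 7SK and control cell bodies, and at 8.24 and 18.4 FPKM in hnRNP R and control cell bodies. Axons with hnRNP R knockdown held 0.597 FPKM and control axons 2.56 FPKM, so it was under control in both compartments of that knockdown. It was at 29.4 FPKM in the axons labelled 7SK knockdown and at 2.64 FPKM in control axons. Cd68 encodes a lysosomal membrane glycoprotein used to stain phagocytes. It was at 6.56 and 7.65 FPKM in 7SK and control cell bodies and at 10.2 and 8.31 FPKM in hnRNP R and control cell bodies. In axons Cd68 was at 5.93 FPKM with hnRNP R knockdown, against 2.55 FPKM in control, and at 11.2 FPKM in those labelled 7SK knockdown, against 2.61 FPKM in control. Neither gene was tested in any comparison.

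Dnase2a encodes the lysosomal nuclease that digests engulfed DNA. It was low in the cell bodies, with 5.76 and 2.31 FPKM in 7SK and control and 1.31 and 2.51 FPKM in hnRNP R and control, none tested. It was at 5.01 and 4.02 FPKM in hnRNP R knockdown and control axons. The axons labelled 7SK knockdown held 111 FPKM and control axons 4.10 FPKM (log2 ratio 4.76, q = 0.00360, the authors' deposited table), so that 1 of its 8 group values exceeds 5.76 FPKM. Mast1, the kinase gene given the same locus, was at 15.8 and 11.5 FPKM in that pair. How reads were divided between the 2 records is not stated in the sources used here.

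Ctsd and Ctsb encode cathepsins D and B, the main aspartic and a major cysteine protease of lysosomes, made by most cells. Ctsd was at 158 and 127 FPKM in 7SK and control cell bodies (log2 ratio 0.31, q = 0.576, the authors' deposited table) and at 123 and 138 FPKM in hnRNP R and control cell bodies (log2 ratio -0.17, q = 0.724). Ctsb was at 66.1 and 62.0 FPKM in the first pair (log2 ratio 0.094, q = 0.840, the authors' deposited table) and at 69.7 and 67.4 FPKM in the second (log2 ratio 0.050, q = 0.933). None of these passed, and Ctsb had the smallest difference of the 10 in both cell-body comparisons as deposited. In hnRNP R knockdown axons Ctsd was at 83.1 FPKM and in control axons at 68.9 FPKM (log2 ratio 0.27, q = 0.879, the authors' deposited table). Ctsb was at 33.3 FPKM in hnRNP R knockdown axons and 27.6 FPKM in control axons (log2 ratio 0.27, q = 0.883, the authors' deposited table). Both were tested there, and neither passed. The axons labelled 7SK knockdown held 254 FPKM of Ctsd against 70.9 FPKM in control axons (log2 ratio 1.84, q = 0.0241, the authors' deposited table). They held 75.3 FPKM of Ctsb against 28.3 FPKM in control axons (log2 ratio 1.41, p = 0.01045, q = 0.139, the authors' deposited table). Fdft1, a cholesterol-synthesis gene given the locus of Ctsb, was at 22.1 FPKM in that group and 23.7 FPKM in control axons.

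Apoe was the most abundant of the 10 on the cell-body side, and the single gene that rose on data its choice did not use. It was at 575 FPKM in hnRNP R cell bodies and 408 FPKM in control cell bodies, 1.41-fold higher (log2 ratio 0.50, p = 0.00035, q = 0.0373, the authors' deposited table). In 7SK cell bodies it was at 462 FPKM, against 375 FPKM in control (log2 ratio 0.30, p = 0.04405, q = 0.304, the authors' deposited table). Axons with hnRNP R knockdown held 183 FPKM and control axons 61.6 FPKM (log2 ratio 1.57, p = 0.0035, q = 0.221, the authors' deposited table). It was at 324 FPKM in the axons labelled 7SK knockdown and at 63.1 FPKM in control axons (log2 ratio 2.36, q = 0.00360, the authors' deposited table). Apoe was above its control in all 4 comparisons as deposited, and below it in 7SK cell bodies as a share of all summed FPKM (log2 ratio -0.083).

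Beside the rise of Apoe in hnRNP R cell bodies, the 20 microglia and macrophage markers summed to 55.8 FPKM, against 69.6 FPKM in control, with 14 of them lower and 5 higher. The 10 oligodendrocyte and Schwann cell markers summed to 136 and 92.9 FPKM in the same pair (log2 ratio 0.54), with 8 higher and 1 lower. The most abundant of them, Olig1, a factor of the oligodendrocyte lineage, was at 59.9 and 47.3 FPKM (p = 0.03095, q = 0.329, the authors' deposited table). In hnRNP R knockdown and control axons that list summed to 52.8 and 27.9 FPKM (log2 ratio 0.92), with 6 higher and 2 lower. In 7SK and control cell bodies, where Apoe was not called, it summed to 111 and 85.5 FPKM (log2 ratio 0.37), with 7 higher and 2 lower. As shares of all summed FPKM the log2 ratio of the list was 0.45 in hnRNP R cell bodies and -0.012 in 7SK cell bodies. The 10 astrocyte and radial glia markers summed to 538 and 505 FPKM in hnRNP R and control cell bodies, with 6 higher and 4 lower (log2 ratio 0.090, or -0.0038 as a share of all summed FPKM). Gfap, the astrocyte filament, was at 14.1 and 9.21 FPKM and Aqp4, the astrocyte water channel, at 8.29 and 4.33 FPKM, neither tested. Of the 3 most abundant, Fabp7, a radial glia lipid carrier, was at 194 and 168 FPKM (q = 0.611), the filament gene Vim at 122 and 147 FPKM (q = 0.713) and the glutamate transporter Slc1a3 at 76.0 and 85.8 FPKM (q = 0.851), none called in the authors' deposited table. The part of these cells in the level of Apoe was not tested.

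Apoe weighs on every sum over the 10. It made up 66.8% of the summed FPKM of the 10 in hnRNP R cell bodies and 55.7% in control cell bodies, and 54.5% and 55.8% in 7SK and control cell bodies. In axons its share was 53.7% and 33.7% with hnRNP R knockdown and in control, and 31.6% and 33.7% in those labelled 7SK knockdown and control. The 6 phagocyte genes (Gpnmb, Spp1, Tyrobp, Cd68, C1qb and Lyz2) were therefore summed apart. They came to 91.0 and 115 FPKM in hnRNP R and control cell bodies, 0.789 times control. They came to 155 and 106 FPKM in 7SK and control cell bodies, 1.46 times control. The first sum was below control and the second above it under each scaling tried, and whether they differ was not tested. Of the 6, 3 were higher and 3 lower in the first pair as deposited (median log2 ratio -0.072), and 5 higher and 1 lower in the second (0.50). Spp1 was the most abundant of the 6 in each of these groups, at 43.0 and 58.1 FPKM in the first pair and 80.6 and 53.4 FPKM in the second. In axons the 6 summed to 36.4 and 20.5 FPKM with hnRNP R knockdown and in control, and to 262 and 21.0 FPKM in those labelled 7SK knockdown and control, 12.5 times control.

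Over all 10 the sums were 860.2 and 731 FPKM in hnRNP R and control cell bodies, 847 and 673 FPKM in 7SK and control cell bodies, 341 and 183 FPKM in hnRNP R knockdown and control axons, and 1026 and 188 FPKM in the axons labelled 7SK knockdown and control. The sum for 7SK cell bodies was above control as deposited (log2 ratio 0.33) and below it as a share of all summed FPKM (log2 ratio -0.051), so that its direction rests on the scaling. A single locus, Gm26924, held between 36.8% and 47.5% of all summed FPKM.

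The compartments were then compared within each condition. The axonal and somatodendritic tables were scaled separately, so the ratios below carry that scaling and were not tested. Control axons were among the values by which the genes were picked, so the control ratios describe the choice. In control cultures 9 of the 10 were lower in axons than in cell bodies and 1 was higher, where 34.4% of 13499 records were higher. The median axon-to-cell-body ratio was 0.254 in the 7SK tables, against 0.751 over these records. Tyrobp had the lowest ratio, 0.088, and Gpnmb (0.135), Lyz2 (0.156), Apoe (0.168) and Spp1 (0.183) followed. Dnase2a was the exception, at 1.78. With hnRNP R knockdown 9 of 10 were again lower in axons and 1 was higher, where 32.1% of records were higher. The median ratio was 0.529 against 0.680 over all records, and the controls of those tables had 0.228. The ratios of C1qb and Lyz2, 0.0996 and 0.0725, were the lowest there.

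In cultures labelled 7SK knockdown 9 of the 10 were higher in axons than in cell bodies, where 35.9% of records were, and the median ratio was 1.65 against 0.748 over all records. The ratio was 2.39 for Gpnmb, 1.42 for Spp1, 2.18 for Tyrobp, 1.71 for Cd68, 2.94 for C1qb and 1.30 for Lyz2. Apoe alone was lower in axons, at 0.702. For Ctsd and Ctsb the ratios were 1.61 and 1.14, and for Dnase2a 19.3. These ratios contain the axonal values by which the genes were picked.

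**Figure D3:**
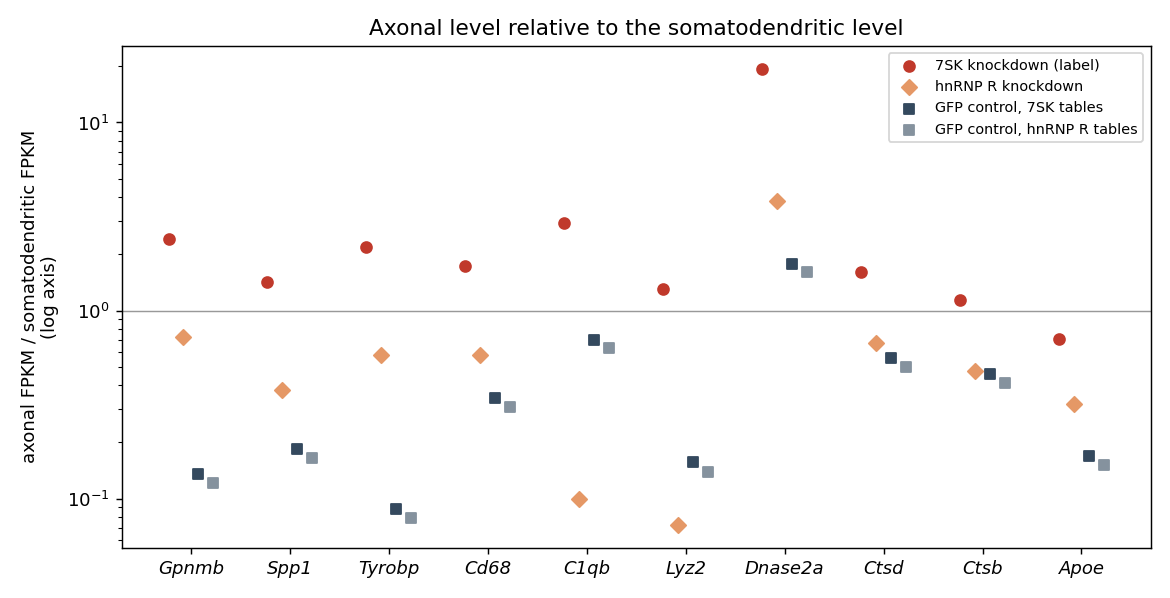
Axonal FPKM divided by somatodendritic FPKM of each gene (log axis, line at 1) in cultures labelled 7SK knockdown, with hnRNP R knockdown and in GFP controls as scaled in either pair of tables; each point is a ratio of 2 group values. In controls 9 of 10 genes lie under 1, and in cultures labelled 7SK knockdown 9 of 10 lie above it. The axonal values of both entered the choice of the genes.

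Other microglia and macrophage genes were read from a list of 20 that holds none of the 10. No gene of the list was tested by the authors in any comparison. In cell bodies the list summed to 98.9 and 64.0 FPKM with 7SK knockdown and in control, with 10 genes higher, 8 lower and a median log2 ratio of 0.29 against 0.061 over all genes tested. With hnRNP R knockdown it summed to 55.8 and 69.6 FPKM in cell bodies and control, with a median of -0.56 against 0.020. In axons it summed to 29.8 and 14.7 FPKM with hnRNP R knockdown and in control, with 13 higher, 5 lower and a median of 0.28 against 0.14. In the axons labelled 7SK knockdown it summed to 125 FPKM and in control axons to 15.1 FPKM, with 15 higher, 3 lower and a median of 2.78 against 0.23. The genes tested are abundant ones, so a wider background was read for this and the other lists. Over records with 1 FPKM or more in the higher group the median was 0.084 in 7SK and 0.018 in hnRNP R cell bodies. It was 0.072 in the axons labelled 7SK knockdown and 0.027 in hnRNP R knockdown axons. Taken as shares of all summed FPKM, log2 ratios are 0.38 lower in 7SK cell bodies and 0.35 lower in hnRNP R knockdown axons. Both shifts exceed the median of the list there, so the sign of these 2 medians rests on the scaling. The sums of the list stayed above control as shares, with log2 ratios of 0.25 and 0.67. Genes listed at 0 enter these counts and medians. Of the 20, 3 and 5 were listed at 0 in the axons labelled 7SK knockdown and control axons, and 7 and 5 in hnRNP R knockdown and control axons. In cell bodies 5 and 2 were listed at 0 with 7SK knockdown and in control, and 4 and 2 with hnRNP R knockdown and in control.

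Single markers of the list differed in level. Tmem119, a marker of resident microglia, was listed at 0 in all 8 group values. P2ry12, another such marker, was at most 0.714 FPKM, the value of control axons. Fcer1g, an adaptor that pairs with Fc receptors, was listed at 0 in the axons labelled 7SK knockdown and in control axons, and at 3.27 FPKM in hnRNP R knockdown axons. Laptm5, a lysosomal protein of blood-derived cells, was among the 3 most abundant, at 19.0 and 6.11 FPKM in the axons labelled 7SK knockdown and control axons, and at 11.3 and 5.93 FPKM in hnRNP R knockdown and control axons. In cell bodies Laptm5 was at 20.1 and 10.9 FPKM with 7SK knockdown and in control, and at 9.27 and 11.8 FPKM with hnRNP R knockdown and in control. Its order of groups was that of Gpnmb and Spp1: above control in both axonal comparisons and in 7SK cell bodies, below it in hnRNP R cell bodies. The part of such cells in the levels of the 10 was not tested.

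Complement genes other than C1qb were read from a list of 11, which shares C1qa and C1qc with the list above. They summed to 62.5 and 4.94 FPKM in the axons labelled 7SK knockdown and control axons, with 10 higher and none lower. Of the 11, 1 and 5 were listed at 0 in that pair, and these enter the count. In hnRNP R knockdown and control axons they summed to 7.11 and 4.81 FPKM. In cell bodies they summed to 40.9 and 24.5 FPKM with 7SK knockdown and in control, and to 30.3 and 26.6 FPKM with hnRNP R knockdown and in control. C3ar1, the receptor for a fragment of C3, was the most abundant after C1qa and C1qc, at 11.0 and 0.598 FPKM in the axons labelled 7SK knockdown and control axons. None of the 11 was tested.

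Lysosomal enzymes outside the 10 were read from a list of 41 hydrolases and their helpers. Of these, 6 were tested in the axons labelled 7SK knockdown and 1 rose: Ctsl, the cysteine protease cathepsin L, at 69.1 FPKM against 13.0 FPKM in control axons (q = 0.00561, the authors' deposited table). The list summed to 753 and 465 FPKM there, with 29 higher, 10 lower and a median log2 ratio of 0.39 against 0.23 over all genes tested. Psap, the precursor of the saposins and the most abundant of the list, was at 191 and 135 FPKM in that pair (q = 0.421, the authors' deposited table). Lgmn, the asparagine-specific protease legumain, was at 40.9 and 13.6 FPKM (p = 0.00235, q = 0.0659) and Ctsa, cathepsin A, at 56.6 and 25.9 FPKM (p = 0.03045, q = 0.212), both higher without passing in the authors' deposited table. Grn, the progranulin precursor, was at 51.6 and 36.3 FPKM (q = 0.614) and Gaa, the lysosomal glucosidase, at 44.6 and 42.1 FPKM (q = 0.948), both in the authors' deposited table. Of the 6 tested 3, Ctsl, Lgmn and Ctsa, had an unadjusted p under 0.05, and the median log2 ratio of the 6 was 0.81. No gene under 35.5 FPKM in its higher group was tested here, and these 3 were below that in control axons. They were thus tested only through their level in the axons labelled 7SK knockdown. That raises both figures, and the median over all 41 was 0.39. With hnRNP R knockdown and in control the list summed to 461 and 452 FPKM in axons (log2 ratio 0.029, or -0.32 as a share of all summed FPKM), and none of 4 tested passed, with 0 at an unadjusted p under 0.05 in the authors' deposited table.

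In 7SK cell bodies the hydrolases summed to 796 FPKM and in control to 716 FPKM (log2 ratio 0.15, or -0.23 as a share of all summed FPKM), with 29 higher, 11 lower and none of 8 tested called. In hnRNP R cell bodies they summed to 727 FPKM and in control to 778 FPKM, with 12 higher, 29 lower and none of 9 tested called. At an unadjusted p under 0.05 the authors' deposited table held 2 of the 8 and 1 of the 9.

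Lysosomal membrane and proton pump genes formed a list of 23. They came to 582 and 482 FPKM in the axons labelled 7SK knockdown and control axons and to 457 and 469 FPKM in hnRNP R knockdown and control axons, with none of 8 and none of 10 tested called and 0 at an unadjusted p under 0.05 in either. The first of these sums had a log2 ratio of 0.27 as deposited, 0.023 as a share of all summed FPKM and -0.18 as a share without the locus Gm26924. In 7SK and control cell bodies the sums were 900.5 and 890.4 FPKM (log2 ratio 0.016, or -0.37 as a share of all summed FPKM). There 1 of 14 tested rose: Atp6v0b, a membrane subunit of the proton pump, at 108 FPKM against 59.4 FPKM in control (q = 0.0498, the authors' deposited table). In hnRNP R and control cell bodies the sums were 899 and 967 FPKM, and none of 16 tested passed, with 2 at an unadjusted p under 0.05.

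**Figure D4:**
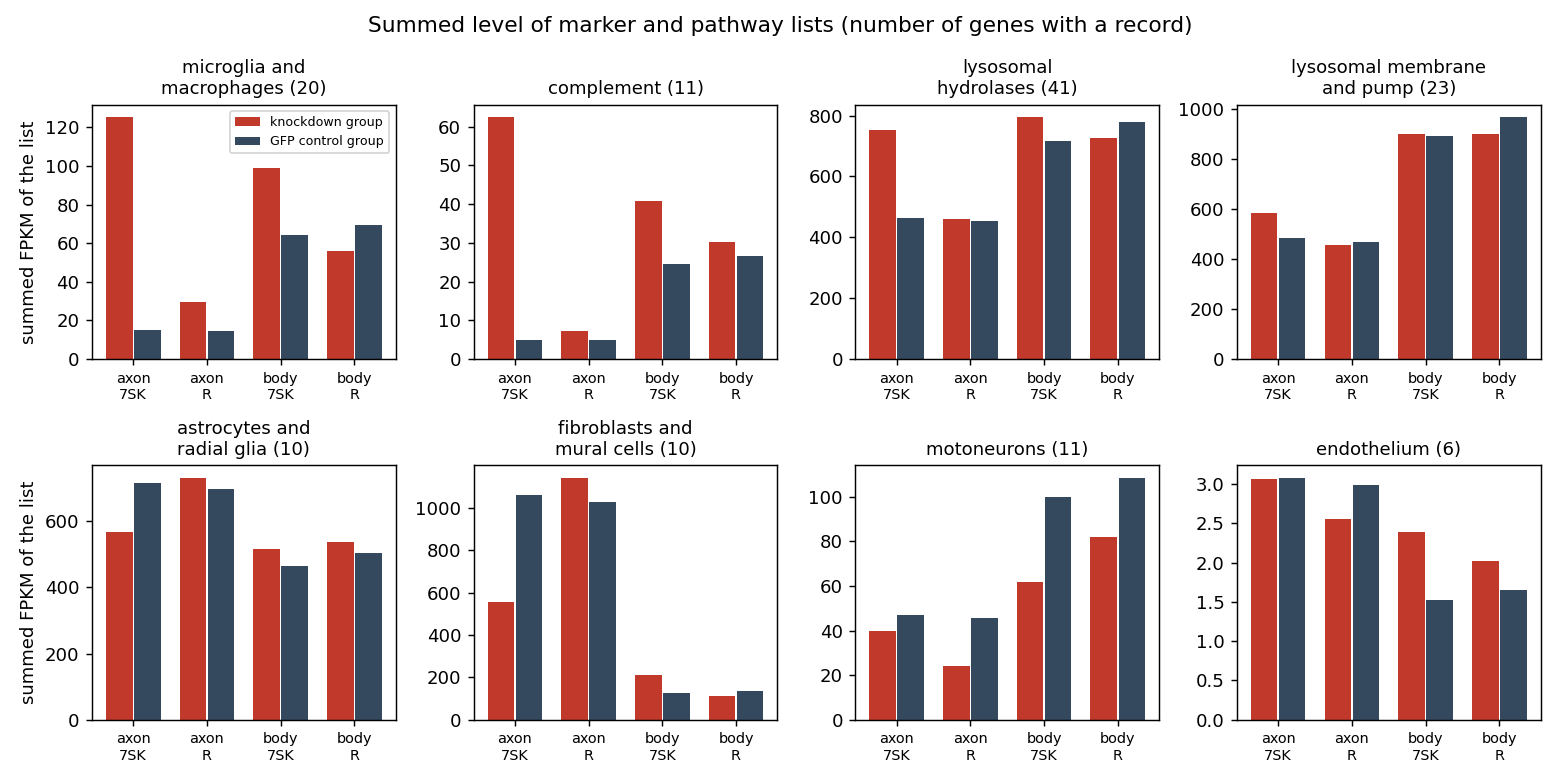
Summed FPKM of marker and pathway lists (bars from 0, a scale of its own in each panel) in the knockdown group (red) and the GFP control group (blue) of each comparison, with the number of genes that have a record. Microglia and complement genes reach 125 and 62.5 FPKM in the axons labelled 7SK knockdown, against 15.1 and 4.94 FPKM in control axons, whereas lysosomal membrane genes are at 582 and 482 FPKM (log2 ratio 0.27, or -0.18 as a share of summed FPKM without Gm26924) and fibroblast genes are lower there than in control.

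Receptors and partners of the 10 were called in no comparison. Of 10 Apoe receptors and lipid partners, 1 was tested in the axons labelled 7SK knockdown, 2 in hnRNP R knockdown axons, 2 in 7SK and 3 in hnRNP R cell bodies; both tested in 7SK cell bodies had an unadjusted p under 0.05 in the authors' deposited table. The most abundant, the endocytic receptor Lrp1, was at 46.0 and 78.7 FPKM in 7SK and control cell bodies (q = 0.251) and at 89.0 and 85.6 FPKM in hnRNP R and control cell bodies (q = 0.963), both in the authors' deposited table. Of 8 osteopontin receptors, Itgb1, the shared beta-1 integrin, was at 49.0 and 71.6 FPKM in the axons labelled 7SK knockdown and control axons (q = 0.597, the authors' deposited table). Cd44, another of them, was at 16.6 FPKM in that group and 36.6 FPKM in control axons (q = 0.163, the authors' deposited table). Both were lower than control there without passing the test.

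Phagocytes that have taken up lipid are known to express Spp1, Gpnmb and Apoe, and 10 further markers of such cells were read. Few were tested: 2 in the axons labelled 7SK knockdown, 3 in hnRNP R knockdown axons, 1 in 7SK and 2 in hnRNP R cell bodies. None of those tested passed, and 0 had an unadjusted p under 0.05 in the authors' deposited tables. All 10 markers summed to 156 and 137 FPKM in the axons labelled 7SK knockdown and control axons, and to 157 and 134 FPKM in hnRNP R knockdown and control axons. As shares of all summed FPKM both axonal sums were below control (log2 ratios -0.062 and -0.12). In cell bodies they summed to 116 and 86.8 FPKM with 7SK knockdown and in control, and to 112 and 94.3 FPKM with hnRNP R knockdown and in control. Axl, a receptor for dying cells, Cd63 and Csf1 held most of the axonal sums. In the axons labelled 7SK knockdown 6 of the 10 were higher and 3 lower than in control axons, with a median log2 ratio of 0.77 against 0.23 over all genes tested. Lpl, lipoprotein lipase, was at 9.20 and 1.32 FPKM in that pair, the galectin gene Lgals3 at 11.1 and 1.58 FPKM and the fatty-acid carrier Fabp5 at 29.1 and 14.0 FPKM. The integrin gene Itgax was at 4.92 FPKM and the lectin receptor Clec7a at 3.32 FPKM in the axons labelled 7SK knockdown, and both were listed at 0 in control axons. None of these 5 was tested there. The 3 lower were Cd63, Csf1 and Cd9. Cd63 was at 23.5 and 44.2 FPKM in the axons labelled 7SK knockdown and control axons (q = 0.319, the authors' deposited table). Csf1 was at 32.4 and 43.0 FPKM in that pair (q = 0.764, the authors' deposited table) and Cd9 at 7.56 and 8.25 FPKM, not tested.

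Markers of other cells were read in the same groups. Fibroblast and mural markers summed to 554 FPKM in the axons labelled 7SK knockdown and 1059.8 FPKM in control axons, and Acta2, smooth-muscle actin, fell there to 176 FPKM, against 543 FPKM (q = 0.00360, the authors' deposited table). In 7SK cell bodies the same markers summed to 211 FPKM and in control to 127 FPKM, where Acta2 rose to 130 FPKM, against 76.3 FPKM in control (q = 0.00407), and the fibronectin gene Fn1 to 33.7 FPKM, against 23.3 FPKM (q = 0.00888, both the authors' deposited table). Gja1, an astrocyte gap-junction gene, rose there to 36.2 FPKM, against 18.6 FPKM (q = 0.00888, the authors' deposited table), and Nefl fell to 54.9 FPKM, against 85.6 FPKM (q = 0.0132). Astrocyte and radial glia markers summed to 568 and 715 FPKM in the axons labelled 7SK knockdown and control axons, where Nes, a progenitor filament, fell to 22.3 FPKM, against 69.9 FPKM (q = 0.00797, the authors' deposited table). In this axonal group, by which the phagocyte genes were picked for being above control, fibroblast and astrocyte markers, in sum, stood below control under each scaling tried. Of the 10 fibroblast and mural markers 3 were higher and 6 lower there. Of the 10 astrocyte and radial glia markers 4 were higher and 6 lower. The part of these cells was not tested. Motoneuron markers summed to 39.9 and 46.8 FPKM in that pair, and endothelial markers to 3.06 and 3.08 FPKM. Of 8 markers of other blood cells 1, the globin gene Hba-a1, was listed above 0 there, at 2.30 FPKM, and was listed at 0 in control axons. Oligodendrocyte and Schwann cell markers summed to 38.1 and 28.6 FPKM and markers of other neurons to 42.2 and 37.0 FPKM in the same pair. Both sums turn with the scaling, to a log2 ratio of -0.039 for the first as a share without Gm26924 and of -0.062 for the second as a share of all summed FPKM. Of these 2 lists 1 gene was called in any comparison: the glycine transporter Slc6a5 fell in hnRNP R cell bodies to 17.5 FPKM, against 34.8 FPKM in control (q = 0.00865, the authors' deposited table).

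The genes whose pattern over the 8 group values was most like the mean profile of the 10 were sought among 6684 other records with 10 FPKM or more in any group. The control libraries enter these 8 values in both scalings, so the points are not independent, and the likeness is a description. The profile also holds the axonal values by which the 10 were picked. A gene high in the axons labelled 7SK knockdown therefore resembles it whatever its role, and no shared function is read from the names below. Pearson's r on log2 values was 0.997 for Ctsl, 0.993 for Gas6, the bridging ligand by which phagocytes hold dying cells, 0.987 for Jarid2, 0.987 for Cpne8 and 0.985 for Vps16, a subunit of a complex for fusion with lysosomes. Gas6 was at 26.1 and 7.49 FPKM in the axons labelled 7SK knockdown and control axons, at 10.4 and 7.28 FPKM in hnRNP R knockdown and control axons, and between 15.9 and 17.9 FPKM in all 4 cell-body values. Among the 10, Ctsd (0.988) and Spp1 (0.987) were closest to the common profile they help to form. Dnase2a (0.456) and C1qb (0.759) were farthest from it.

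Contacts of hnRNP R were counted by iCLIP in unperturbed cells, which is a readout apart from the choice of genes. The unfractionated libraries held 359005 and 319381 cDNAs in motoneurons, 456721 and 99762 in NSC34 cells and 36280 in the IgG control. Ctsb had 4 and 3 cDNAs in the motoneuron replicates, 21 and 4 in the NSC34 replicates and none in IgG. Ctsd had 1 and 3 in motoneurons, 15 and 1 in NSC34 cells and 3 in IgG. In CPM, cDNAs per 1000000 of the library, Ctsd stood at 2.79 and 9.39 in motoneurons and 32.8 and 10.0 in NSC34 cells, against 82.7 in IgG, so none of its values exceeded that of IgG. For Ctsb the values were 11.1 and 9.39 CPM in motoneurons and 46.0 and 40.1 in NSC34 cells, where 0 cDNAs in the small IgG library allow up to 82.7.

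The other 8 had few cDNAs or none. Over all 11 libraries Spp1 had 3 cDNAs, all in motoneurons, Gpnmb had 2, C1qb and Lyz2 had 1 each, and Apoe, Tyrobp, Cd68 and Dnase2a had none. A count of 0 allows up to 8.36 and 9.39 CPM in the motoneuron replicates, for counting error only. Apoe, at 408 FPKM in control cell bodies, had no cDNA at that depth. Of the 38 cDNAs on Ctsb 20 lay in the 3′ UTR, 13 in introns, 4 in coding sequence and 1 in the 5′ UTR, and of the 25 on Ctsd 10 lay in coding sequence, 9 in the 3′ UTR and 6 in introns. Ctsb thus carried most of its counts outside coding sequence. These splits run over all 11 libraries, IgG included, so the 25 on Ctsd hold the 3 of IgG. NSC34 replicate 1 alone gave 21 of the 38 on Ctsb and 15 of the 25 on Ctsd.

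Ctsb and Ctsd alone had the 10 cDNAs needed for the test between cell types, by edgeR's quasi-likelihood test with Benjamini-Hochberg adjustment over 9567 genes. Neither was called, where 36.9% of all genes were. For Ctsb the log2 ratio of motoneurons over NSC34 cells was -1.14 with a standard error of 0.70 (adjusted p = 0.210), and for Ctsd it was -1.20 with a standard error of 0.91 (adjusted p = 0.321). With 1 library left out at a time the value of Ctsd ran between -2.31, without motoneuron replicate 2, and -0.75, without motoneuron replicate 1. Both were called lower when libraries were scaled by their totals alone, so these 2 calls rest on the scaling. In the fractions Ctsb had 2 cDNAs in the nuclear and 4 in the cytoplasmic motoneuron library. Ctsd had 1 in the nuclear motoneuron library and 1 in the cytoplasmic NSC34 library of antibody 1. No gene of the 10 had enough cDNAs to be tested between nucleus and cytoplasm.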

How the data were processed

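The authors' RNA values are 4 deposited comparison tables with 1 FPKM value per group and record, made with Cufflinks 2.2.1 after FastQC 0.10.1, per the submitters' processing notes. The log2 fold changes, test statistic, p-value and q-value are the authors' own, and the smallest deposited p-value is 5e-05. Coordinates are those of the deposited tables. The sources used here do not give the aligner, the annotation or the test's settings. The iCLIP files give each cDNA count per gene as deposited, on mm9 with Ensembl 59, per the file headers; another 1254 per-sample columns were not used. The header of the IgG file names hnRNP R as its protein, so its identity rests on its title.

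Symbols were split on commas and matched exactly. Medians, ranges and 2-fold limits of ratios used 0.1 FPKM added to both values. Log2 ratios of single genes as deposited are the authors' own, with nothing added. For Tyrobp in the axons labelled 7SK knockdown these are 5.60 as deposited and 5.45 with 0.1 FPKM added. Ratios of sums and the axon-to-cell-body ratios of single genes had nothing added. The members and the 16 gene lists were chosen with earlier results of these data known. All 10 members were named. Of each list, every gene called and up to 3 of the most abundant were named. Trem2, Spi1, Lgmn, Ctsa, Gfap, Aqp4, Lpl, Lgals3, Itgax, Clec7a, Fabp5, Cd9 and those named for being at 0 or near it were chosen after their values were seen. iCLIP counts were tested with edgeR 4.0.16 (TMM) in R 4.3.3, with DESeq2 1.42.0 as an alternative, on genes with at least 10 cDNAs. The fit was tested on simulated data. Both iCLIP designs and their alternatives were recomputed, as were the RNA summaries under other thresholds, added values and scalings. Replicate numbers did not pair the iCLIP libraries. P-values there measure only the spread between these libraries, which may be technical.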

Additional observations from a re-analysis of the deposited data

How the results depend on the processing

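Over 20 results, 90 alternatives were run. In the axons labelled 7SK knockdown 5 of the 10 genes were called, but 2 where both groups had to reach 10 FPKM and 3 without the genes whose record shares its locus with another gene, a choice made after seeing the data. At an unadjusted p under 0.05 the authors' deposited tables held 1 gene in hnRNP R knockdown axons, 2 in 7SK cell bodies and 2 in hnRNP R cell bodies. Without Apoe, Ctsb and Ctsd the summed log2 ratio was 3.89 in the axons labelled 7SK knockdown and -0.35 in hnRNP R cell bodies, against 0.23 with all 10. For 7SK cell bodies it was -0.051 as a share of summed FPKM, against 0.33 as deposited. Of the counts of genes above control, also recomputed after seeing the data, those of 7SK cell bodies (9) and hnRNP R knockdown axons (8) each came to 5 as shares of summed FPKM. Between motoneurons and NSC34 cells 2 genes were called with library totals without TMM (Ctsb -2.05, Ctsd -2.09), against 0. The causes were not tested. The other 54 alternatives to the counts called and the ratios over the 10 kept the sign and stayed within 1.5 times, a limit used since the RNA values have no spread. With 1 iCLIP library left out at a time the called members ranged from 0 to 0, and Ctsd fell under 10 cDNAs without NSC34 replicate 1.

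No paired analysis was possible for RNA because the tables hold 1 value per group. With a replicate block the iCLIP log2 ratios were -1.21 for Ctsb and -1.22 for Ctsd, with 0 called. The correlation of deviations of libraries with the same number was 0.0072, so the numbers do not pair them. Between nucleus and cytoplasm edgeR called 0 of 5177 genes, with 27 at an unadjusted p under 0.05, and DESeq2 called 3. Genes under about 21 to 36 FPKM have no test, which leaves most phagocyte genes untested in 3 of the 4 comparisons.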
